A study of Mus musculus with 12 samples.

Results

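The negative acute phase plasma proteins are hepatocyte products whose blood levels are known to go down during inflammation. Of the 25611 genes in the count table, 9 were taken by symbol: Alb, Ttr, Rbp4, Serpina6, Ahsg, Fetub, Gc, Afm and Trf. All 9 were above the filter on low counts, as were 13190 genes in all. The livers came from young adult male C57BL/6J mice. The 4 sham mice had the sham procedure, the 4 CLP mice had sepsis from cecal ligation puncture, and the 4 CLP+DCA mice had the puncture and then dichloroacetate (DCA), an inhibitor of the pyruvate dehydrogenase kinases. Injections were given 24 hr after surgery, and whole livers were taken 6 hr later, 30 hr post-surgery. What the sham and CLP mice received at the injection is not given in the sources used here. The groups were compared to ask which plasma protein transcripts differ in the septic liver, and whether DCA shifts them.

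Hepatocytes supply most of the protein of blood plasma, and inflammatory cytokines, above all interleukin 6, redirect this output. Positive acute phase proteins, such as the serum amyloids, are made in larger amounts, while the carriers of the negative group are made in smaller amounts. The negative group carries fatty acids, thyroid hormone, retinol, cortisol or corticosterone, vitamins D and E, iron and mineral ions through blood. Some of its members, such as albumin and transthyretin, are commonly used as blood markers of inflammation or malnutrition in patients.

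The albumin family members Gc, Alb and Afm stand on chromosome 5 of mm10. Gc, the vitamin D binding protein, lies on the minus strand at chr5:89417511-89457898. Alb, which encodes serum albumin, lies 1003 kb away at chr5:90460870-90476602. Afm, or afamin, a carrier of vitamin E, is found at chr5:90518949-90553544. Ahsg and Fetub, the cystatin-type fetuins A and B, are neighbours on chromosome 16, 18.9 kb apart, at chr16:22892015-22899451 and chr16:22918382-22939768. Further positions are chr19:38116620-38125321 for Rbp4, chr12:103646631-103657218 for Serpina6 and chr9:103208876-103230286 for Trf.

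The bases before the start of transcription are shown for 3 members: Alb, the member that passed the test in CLP, and Gc and Ahsg, whose CLP and sham values overlapped. RefSeq windows of GRCm38.p6, the assembly called mm10, were at hand for 6 of the 9 members, and Ttr, Serpina6 and Trf were not matched. Each line gives the 250 bases before the start, 5′ to 3′ on the strand of the gene, at chr5:90460620-90460869 (plus) for Alb, chr5:89457899-89458148 (minus) for Gc and chr16:22891765-22892014 (plus) for Ahsg. Capitals mark matches to 3 motifs on either strand: CAAAGT (part of an HNF4 site), TTGCNNAA (C/EBP) and TTATGTAA (the D-box, a motif of DBP). Only these exact letters were searched, so binding sites with other letters stay in lower case, and a capital stretch need not be a known site. A match on the opposite strand appears as its reverse complement.
Alb: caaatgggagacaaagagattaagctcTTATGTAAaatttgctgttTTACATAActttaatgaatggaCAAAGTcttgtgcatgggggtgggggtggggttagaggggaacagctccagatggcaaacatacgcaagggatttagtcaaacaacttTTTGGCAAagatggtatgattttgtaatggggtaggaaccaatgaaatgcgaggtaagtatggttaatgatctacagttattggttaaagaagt
Gc: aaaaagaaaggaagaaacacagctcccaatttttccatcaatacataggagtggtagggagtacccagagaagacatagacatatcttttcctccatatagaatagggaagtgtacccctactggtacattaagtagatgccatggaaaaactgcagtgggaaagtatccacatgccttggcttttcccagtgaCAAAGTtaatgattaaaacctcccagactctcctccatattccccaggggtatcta
Ahsg: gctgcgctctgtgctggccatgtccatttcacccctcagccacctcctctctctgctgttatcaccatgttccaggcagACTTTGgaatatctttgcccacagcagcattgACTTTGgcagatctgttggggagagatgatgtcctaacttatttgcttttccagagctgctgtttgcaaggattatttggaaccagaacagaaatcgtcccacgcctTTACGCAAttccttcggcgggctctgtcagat

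The Alb window held all 3 motifs. Its D-box matches began 223 and 204 bases before the start. Of 32851 windows of the same length, 0.819% held the D-box, 12.6% the partial HNF4 site and 9.56% the C/EBP motif. Gc held the partial HNF4 site at 56 bases before the start. Ahsg had it at 171 and 139 bases and the C/EBP motif at 32 bases. Fetub held only the partial HNF4 site, at 235 and 195 bases before the first of its starts, and Rbp4 only the C/EBP motif, 128 bases before its second start. The Afm window and the other windows of Fetub and Rbp4 held none of these letters. These are matches of letters, and binding was not measured.

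The libraries held 24436513 to 44266819 reads on genes; without molecular identifiers these are not single molecules, and intervals from counting alone would be too narrow. Expression is given as CPM, read counts divided by a library size scaled by TMM. One mouse, CLP+DCA 3, stood apart from the other mice of its group, and CLP mice 2 and 4 lay on the same side. Their TMM factors were 0.918, 0.855 and 0.867, against 0.981 to 1.08 in the other mice. The summed CPM of 10 hepatocyte markers was 6064 in CLP+DCA 3, 8492 in CLP 2 and 8384 in CLP 4, against 14411 to 21161 in the other mice. The summed CPM of 8 neutrophil markers was 7.01 to 9.75 in the sham group, 39.2 to 54.5 in CLP and 8.08 to 16.7 after CLP+DCA apart from 72.2 in CLP+DCA 3. Summed markers ranged, in sham, CLP and CLP+DCA, over 167 to 278, 261 to 336 and 215 to 424 CPM for Kupffer cells, 110 to 138, 127 to 159 and 105 to 154 CPM for endothelium, 68.2 to 111, 122 to 326 and 84.5 to 239 CPM for stellate cells with cholangiocytes, and 1.98 to 3.86, 0.449 to 1.55 and 0.650 to 2.62 CPM for lymphocytes. Single markers differed from their sums in CLP versus sham. Of the hepatocyte markers, 9 were lower and 1, Arg1, was higher (log2 fold change 0.61). One of the lower ones, Ass1, was near the floor, with means of 0.689 CPM in sham and 0.277 CPM in CLP. Of the 10, 0 passed the FDR and 4 had all CLP mice below sham, as for 14.2% of all genes. Of the neutrophil markers, 7 were higher and 1, Ly6g, was lower (-0.78). Of the Kupffer cell markers, 7 were higher and 1, Clec4f, was lower (-0.28), while Marco had means of 9.91 CPM in sham and 58.6 CPM in CLP. Des, among the stellate cell markers, had a CLP mean of 45.7 and a maximum of 172 CPM. Of the 7 endothelium markers, 5 were higher and 2 lower. Lyve1 had means of 4.23 CPM in sham and 20.8 CPM in CLP, and Pecam1 of 8.18 and 17.7 CPM. Only 3 of the 8 lymphocyte markers were above the filter on low counts, and these 3 were lower. No marker was at 0 in all mice of a group, and the part of these shifts in the results was not tested. Hnf4a stood at 803, 687 and 808 CPM in CLP 2, CLP 4 and CLP+DCA 3, beside 671 to 765 CPM in sham. Fewer hepatocytes, less RNA per hepatocyte and lower expression of the marker genes themselves were not tested against each other in this RNA of whole livers.

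Albumin mRNA fell in CLP, and transferrin mRNA was higher in every CLP mouse than in sham without passing the test. In CLP versus sham, 1 of the 9 members passed an FDR of 0.05 over all genes (edgeR's quasi-likelihood test with Benjamini-Hochberg adjustment), namely Alb, which was lower. Of all genes tested, 1.14% passed as lower and 1.64% as higher. All 4 CLP mice lay below all 4 sham mice for 5 members, Alb, Ttr, Rbp4, Serpina6 and Afm, whereas 14.2% of all genes separated in this direction. Trf was the 1 member whose CLP mice all lay above sham, as for 12.2% of all genes, and the groups overlapped for Ahsg, Fetub and Gc. The median log2 fold change was -0.60 over the 9 members and 0.02 over all genes tested. At an unadjusted p under 0.05, 5 of the 9 members passed, beside 3772 of the 13190 genes tested. The plot of single livers shows the 5 lower, the 3 overlapping and the 1 higher gene.

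**Figure D1:**
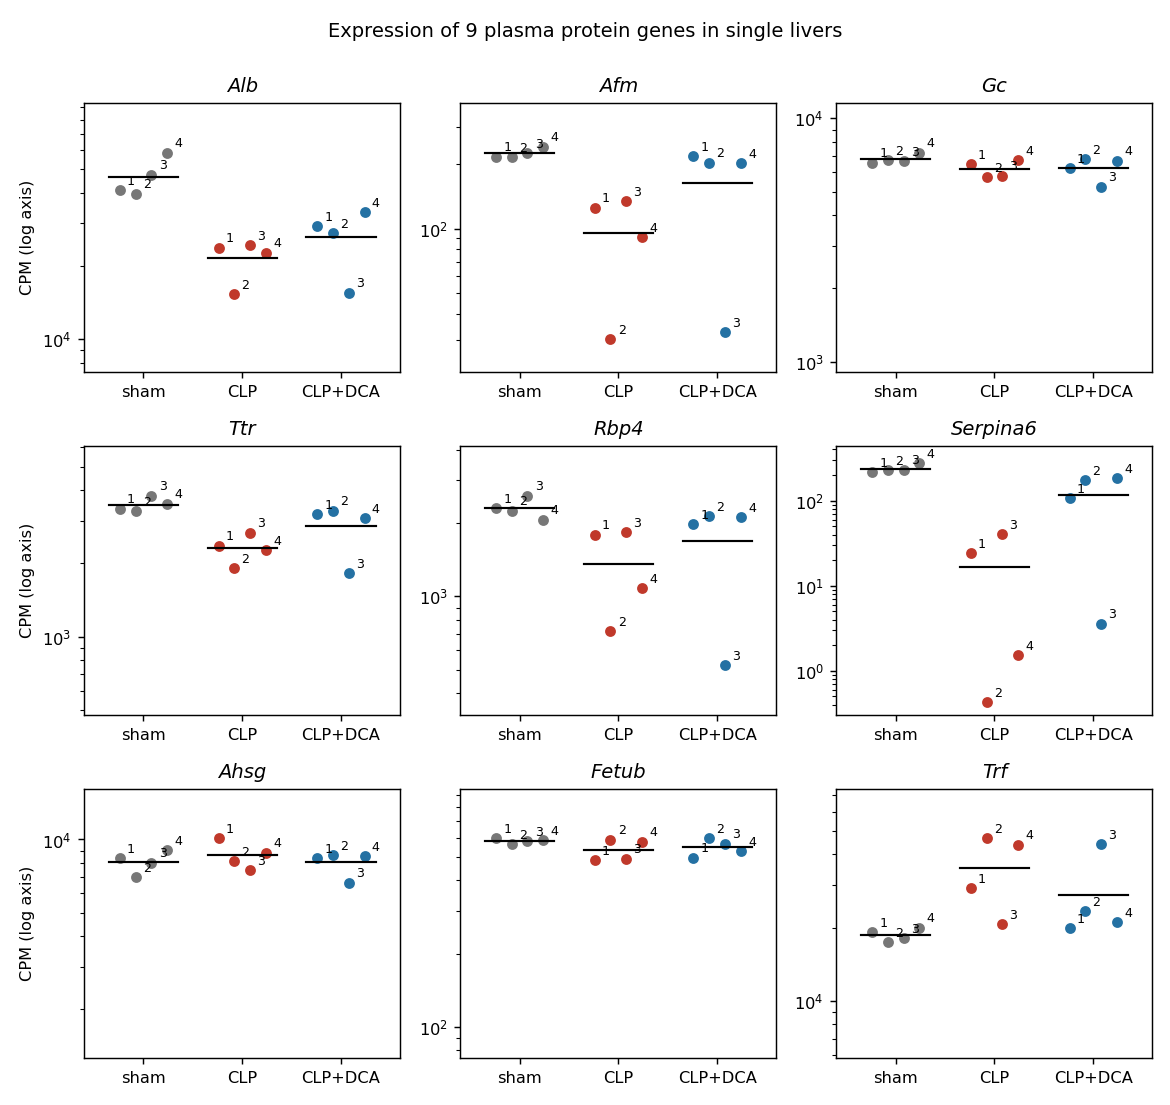
CPM (log axis) of each of the 9 genes in each liver, with 4 sham, 4 CLP and 4 CLP+DCA mice; numbers name the mice and black lines are group means. Serpina6 spans from 0.431 CPM in CLP 2 to 275 CPM in sham 4, while Gc stays between 5232 and 7223 CPM.

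Alb encodes the main protein of plasma, which holds the osmotic pressure of blood and carries fatty acids. Alb stood at 41085, 39666, 47456 and 58481 CPM in sham mice 1 to 4 and at 23840, 15323, 24432 and 22688 CPM in CLP mice 1 to 4. In CLP+DCA mice 1 to 4 it was 29244, 27281, 15515 and 33314 CPM. Every septic mouse, with or without DCA, was below every sham mouse, and the CLP and CLP+DCA mice overlapped. Alb fell by 1.11 on the log2 scale in CLP (SE 0.25, n = 4, adjusted p = 0.0463), to 46.2% of sham. The call was near the threshold: it was kept without CLP 3, CLP+DCA 3 or CLP+DCA 4 and lost without any 1 of the other 9 mice, with adjusted p from 0.00394 to 0.129. The log2 fold change without a mouse ranged from -1.19 to -0.98. With library sizes alone as scaling, which moves the median of all genes to -0.15, it was -1.27, or -1.11 relative to that median.

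Afm lies 42.3 kb beyond Alb. Its values were 217, 215, 224 and 241 CPM in sham mice 1 to 4. In CLP mice 1 to 4 they were 125, 30.3, 134 and 91.2 CPM, and in CLP+DCA mice 1 to 4 they were 218, 203, 32.7 and 202 CPM. All CLP mice were below sham, and 3 CLP+DCA mice were at 202 CPM or more while CLP+DCA 3 was as low as CLP 2. The log2 fold change in CLP was -1.24 (SE 0.53, adjusted p = 0.152), and it did not pass. Gc, at 6571 to 7223 CPM in the sham group, 5719 to 6725 in CLP and 5232 to 6806 after CLP+DCA, overlapped between all groups, with a log2 fold change of -0.14 (SE 0.13, adjusted p = 0.503) in CLP. The difference between Gc and its relatives was not tested. Between Alb and Afm lies Afp, the fetal albumin, at 1.44 to 2.34 CPM in sham and 1.72 to 3.69 CPM in CLP (log2 fold change 0.59, adjusted p = 0.270). Albfm1, 7.7 kb beyond Afm, fell by 0.67 on the log2 scale in CLP (adjusted p = 0.0320), from 50.2 to 74.5 CPM in sham to 31.9 to 37.5 CPM, a call kept in 15 of 23 alternative analyses. It was lost without any 1 sham mouse (adjusted p 0.0541 to 0.0845) and without CLP 1, CLP 2 or CLP 4 (0.0674 to 0.0833).

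Transthyretin and retinol binding protein travel in blood as 1 complex that carries thyroid hormone and retinol. Ttr stood at 3353, 3283, 3802 and 3512 CPM in sham mice 1 to 4, at 2365, 1913, 2674 and 2262 CPM in CLP mice 1 to 4 and at 3187, 3295, 1820 and 3068 CPM in CLP+DCA mice 1 to 4. CLP+DCA 3 lay below all CLP mice, and the other 3 CLP+DCA mice lay above them. The log2 fold change of Ttr in CLP was -0.60 (SE 0.19, adjusted p = 0.0815). Rbp4 stood at 2299, 2250, 2599 and 2071 CPM in the sham group, at 1790, 719, 1832 and 1079 CPM in CLP and at 1976, 2139, 522 and 2114 CPM after CLP+DCA. Again the lowest values were those of CLP+DCA 3, CLP 2 and CLP 4, and the log2 fold change in CLP was -0.77 (SE 0.40, adjusted p = 0.224).

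The reads of Rbp4 for each read of Ttr were compared within a mouse, where no scaling between libraries is needed. They were 0.686, 0.685, 0.684 and 0.590 in sham mice 1 to 4 and 0.757, 0.376, 0.685 and 0.477 in CLP mice 1 to 4. In CLP+DCA mice 1 to 4 they were 0.620, 0.649, 0.287 and 0.689. The ratio was lowest in CLP+DCA 3, CLP 2 and CLP 4, and the other mice lay between 0.590 and 0.757. The log2 ratio differed by -0.26 between CLP and sham (two-sided exact permutation test, p = 0.371, n = 4 per group), by -0.31 between CLP+DCA and sham (exact p = 0.457) and by -0.06 between CLP+DCA and CLP (exact p = 0.857). Adjusted over these 3 comparisons, p was 0.686, 0.686 and 0.857 in these exact tests, whose smallest p is 0.0286. Without CLP+DCA 3, the difference between CLP+DCA and CLP was 0.24, of the opposite sign.

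Serpina6, or corticosteroid binding globulin, is the carrier of glucocorticoids in plasma and had the largest log2 difference of the 9 genes. It stood at 217, 227, 232 and 275 CPM in sham mice 1 to 4. In CLP mice 1 to 4 it was 24.3, 0.431, 40.5 and 1.53 CPM, which rests on 1055, 9, 1673 and 34 reads. In CLP+DCA mice 1 to 4 it was 107, 173, 3.60 and 183 CPM. All septic mice lay below sham, by very different amounts: on the log2 scale with a prior count of 2 reads, CLP 2 was 8.91 below the sham mean and CLP+DCA 4 was 0.37 below it. The CV was 10.9% in the sham group, 116% in CLP and 70.8% after CLP+DCA. The log2 fold change in CLP was -3.82, with an SE of 1.24, and it did not pass (adjusted p = 0.0861). In the same serpin cluster, Serpina3n and Serpina3k, of a family with near-identical copies whose reads may be split, rose with log2 fold changes of 2.09 (adjusted p = 0.0415) and 0.97 (adjusted p = 0.0463); these calls were kept in 12 and 11 of 23 alternatives. Leaving out any 1 sham mouse, CLP 1, CLP 2, CLP 4, CLP+DCA 1 or CLP+DCA 2 ended both, at adjusted p of 0.0541 to 0.121 for Serpina3n and 0.0564 to 0.129 for Serpina3k. Serpina3m, listed with the positive acute phase genes, rose as well (log2 fold change 1.69, adjusted p = 0.0385). Of the 10 serpins tested from the list of family relatives, which leaves out Serpina3m, 2 rose and 0 fell. All CLP mice lay above sham for 4 of these 10 (12.2% of all genes) and below sham for 3 (14.2% of all genes). The groups overlapped for the other 3. The 3 lower ones, named after their values were seen, were Serpina1d (log2 fold change -0.82, adjusted p = 0.0685), Serpina1b (-0.51, adjusted p = 0.104) and Serpina1c (-0.30, adjusted p = 0.261).

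Ahsg and Fetub encode liver glycoproteins; fetuin A keeps calcium phosphate in solution. Ahsg was at 7006 to 9055 CPM in the sham group, 7457 to 10113 in CLP and 6638 to 8626 after CLP+DCA. Fetub was at 565 to 596 CPM in the sham group, 486 to 588 in CLP and 497 to 596 after CLP+DCA. All groups overlapped for both genes. The log2 fold changes in CLP were 0.09 for Ahsg (SE 0.16, adjusted p = 0.713), which is -0.08 with library sizes alone, and -0.12 for Fetub (SE 0.11, adjusted p = 0.483). Hrg, 11.3 kb beyond Fetub, overlapped as well, at 1103 to 1289 CPM in sham and 613 to 1166 CPM in CLP (log2 fold change -0.41, adjusted p = 0.358). The kininogens of the same cluster had log2 fold changes of -0.04 for Kng1 (adjusted p = 0.891) and 0.18 for Kng2 (adjusted p = 0.436).

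Trf, the iron carrier transferrin, was the 1 member with all CLP mice above sham. It stood at 19207, 17412, 18095 and 20019 CPM in sham mice 1 to 4 and at 29029, 46626, 20722 and 43811 CPM in CLP mice 1 to 4. In CLP+DCA mice 1 to 4 it was 19940, 23356, 44181 and 21112 CPM. CLP 2, CLP+DCA 3 and CLP 4 were the highest, and CLP 3 and the other CLP+DCA mice lay at 19940 to 23356 CPM, beside 17412 to 20019 CPM in sham. The log2 fold change in CLP was 0.91 (SE 0.31, adjusted p = 0.0916), a 1.88-fold difference. Without CLP 3 or CLP+DCA 3 it passed, with adjusted p of 0.0470 and 0.0166.

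**Figure D2:**
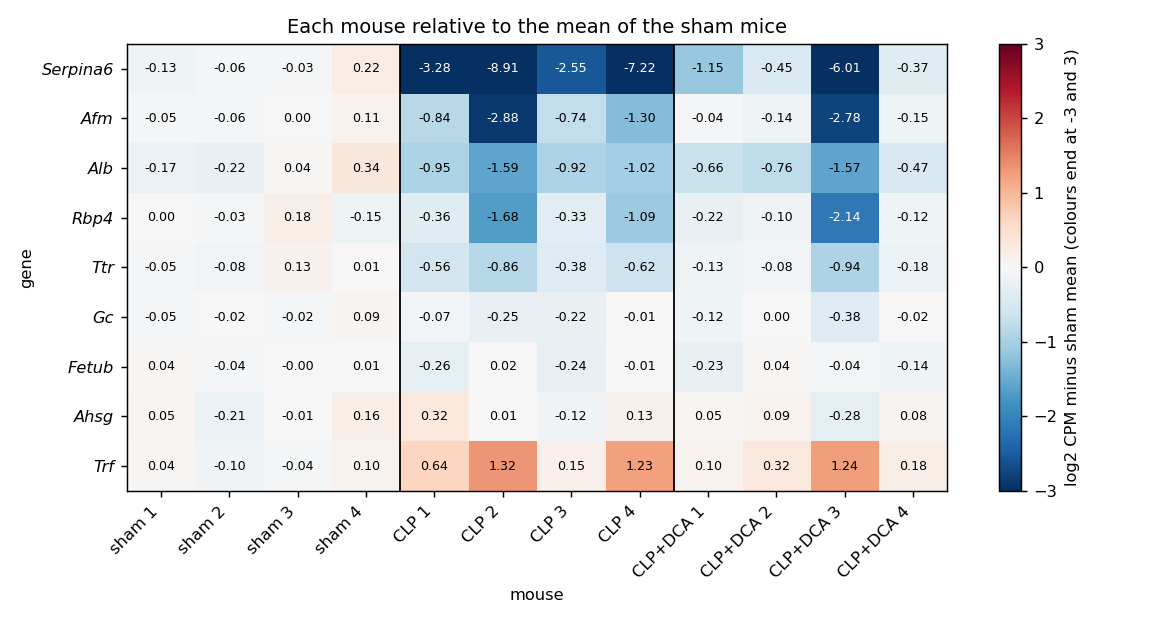
Log2 CPM of each gene (rows) in each mouse (columns) less the mean of the sham mice, with colours ending at -3 and 3. CLP 2, CLP 4 and CLP+DCA 3 are the 3 lowest mice for 5 genes and the 3 highest for Trf, while Gc, Fetub and Ahsg stay between -0.38 and 0.32.

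For most members the same mice stood at the extreme. CLP 2, CLP 4 and CLP+DCA 3 were the 3 lowest of all 12 mice for 5 members, Alb, Ttr, Rbp4, Serpina6 and Afm, and the 3 highest for 1 member, Trf. Over all genes tested, they were the 3 lowest for 13.8% and the 3 highest for 13.8%. They are also the 3 mice with the lowest hepatocyte marker sums. The map of single mice shows how far these 3 livers lie from the rest. Without CLP+DCA 3, which bears on this comparison only through the shared spread, filter and scaling, 6 members passed in CLP versus sham, at adjusted p of 0.00394 for Alb, 0.00845 for Ttr, 0.0166 for Trf, 0.0268 for Serpina6, 0.0279 for Afm and 0.0436 for Rbp4. The share of all genes that passed then was 23.8%. DESeq2 on the 8 sham and CLP mice called the same 6 members, against 23.2% of the genes it tested. Ahsg, Fetub and Gc passed in neither.

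CLP+DCA mice 1, 2 and 4 lay above every CLP mouse for Alb, Ttr, Rbp4, Serpina6 and Afm, as for 12.4% of all genes, and CLP+DCA 3 did not. Of the 9 members, 0 passed the FDR in CLP+DCA versus sham, where 0.0379% of all genes did, and 0 passed in CLP+DCA versus CLP, where 0.00758% did. At an unadjusted p under 0.05, 1 of the 9 members passed in each, beside 1714 and 1319 of the 13190 genes tested. DESeq2 on the 8 mice compared called 0 members in each, beside 1.19% and 0.615% of the genes it tested. DESeq2 on all 12 mice called 1 member (Alb) versus sham, where it called 1.79% of genes, and 0 versus CLP, where it called 0.875%. Voom called 1 member (Alb) versus sham, with 3.59% of genes, and 2 (Serpina6 and Ttr) versus CLP, with 9.76%. All CLP+DCA mice lay below sham for 2 members, Alb and Serpina6, against 4.97% of all genes. Between CLP+DCA and CLP no member separated, beside a share of 4.37% of all genes, in 1 direction or the other. The median log2 fold change over the members was -0.30 versus sham and 0.29 versus CLP, and 0.01 over all genes in each.

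**Figure D3:**
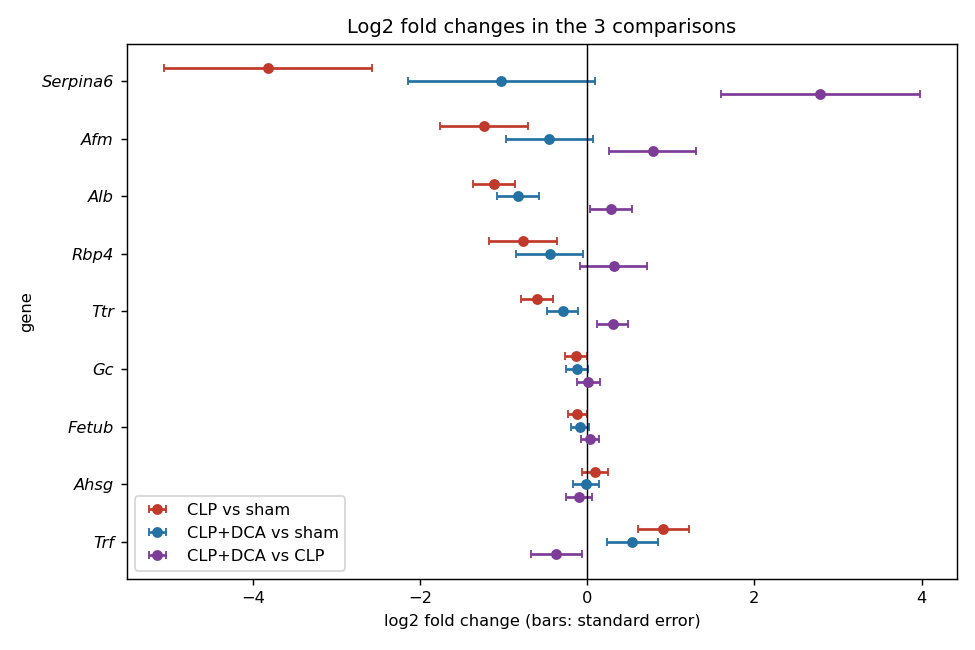
Log2 fold change (points) and standard error (bars) of each gene in the 3 pairwise comparisons named in the legend, 4 mice per group. Serpina6 is the farthest from 0 in CLP versus sham, at -3.82, and in CLP+DCA versus CLP, at 2.79; comparisons that share a group are not independent.

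Against sham, Alb of the CLP+DCA mice had a log2 fold change of -0.83 (SE 0.25, adjusted p = 0.279) and Serpina6 had a log2 fold change of -1.03 (SE 1.12, adjusted p = 0.686). The other values were -0.45 for Afm, -0.45 for Rbp4, -0.30 for Ttr, -0.12 for Gc, -0.09 for Fetub, -0.01 for Ahsg and 0.54 for Trf. Against CLP, Serpina6 had a log2 fold change of 2.79 (SE 1.19, adjusted p = 0.467), Afm of 0.78 (SE 0.52, adjusted p = 0.649) and Alb of 0.29 (SE 0.25, adjusted p = 0.730). Those of Rbp4, Ttr and Trf were 0.32, 0.30 and -0.37. The 2 comparisons use the same CLP+DCA mice and are not independent of each other.

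Without CLP+DCA 3, the log2 fold changes in CLP+DCA versus CLP were 0.47 for Ttr (adjusted p = 0.0598), 1.12 for Afm (adjusted p = 0.0854), 3.18 for Serpina6 (adjusted p = 0.0881) and -0.71 for Trf (adjusted p = 0.0951). None passed. Versus sham, those of Afm, Rbp4 and Ttr were then -0.11, -0.15 and -0.13. Alb was at -0.64 (adjusted p = 0.367), against -0.83 with all mice, and Serpina6 at -0.62 (adjusted p = 0.903), against -1.03. The 3 remaining CLP+DCA mice had Alb of 27281 to 33314 CPM, below the lowest sham mouse.

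Per length of the merged exons, Alb led the 9 genes in sham at 19928 ± 3659 RPKM (SD, n = 4), followed by Trf at 5628 ± 349 RPKM. Ahsg and Gc, at 3693 ± 388 and 3684 ± 157 RPKM, overlapped, and were followed by Ttr at 2941 ± 194 and Rbp4 at 1716 ± 163 RPKM. Fetub, at 296 ± 6.64 RPKM, Serpina6, at 135 ± 14.7 RPKM, and Afm, at 73.9 ± 3.95 RPKM, were lowest. In CLP, the leading place was shared: Trf at 10556 ± 3698 RPKM overlapped with Alb at 9210 ± 1805 RPKM. At the other end, Afm at 31.4 ± 15.5 RPKM and Serpina6 at 9.47 ± 11.0 RPKM overlapped too. These overlaps are between the ranges over mice. Within a mouse, Trf led in CLP 2 and CLP 4 and Alb in CLP 1 and CLP 3. Afm lay above Serpina6 in each CLP mouse. In CLP+DCA, the ranges over mice of Alb at 11246 ± 3262 and Trf at 8177 ± 3447 RPKM overlapped. So did those of Ttr and Rbp4, at 2397 ± 580 and 1257 ± 581 RPKM, and of Serpina6 and Afm. Within each CLP+DCA mouse Ttr lay above Rbp4, at 1534 and 388 RPKM in CLP+DCA 3. Alb lay above Trf in each of them but CLP+DCA 3.

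The 9 genes held 8.27% to 10.4% of all reads in the sham group, 6.63% to 7.46% in CLP and 6.84% to 7.81% after CLP+DCA. The share of Alb was 4.24% to 6.02% in the sham group, 1.31% to 2.55% in CLP and 1.42% to 3.43% after CLP+DCA. That of Trf was 1.86% to 2.06%, 2.16% to 3.99% and 2.16% to 4.05%. For each Alb read there were 0.342 to 0.467 Trf reads in sham and 0.848 to 3.04 in CLP, so that more reads lay on Trf than on Alb in part of the septic livers.

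**Figure D4:**
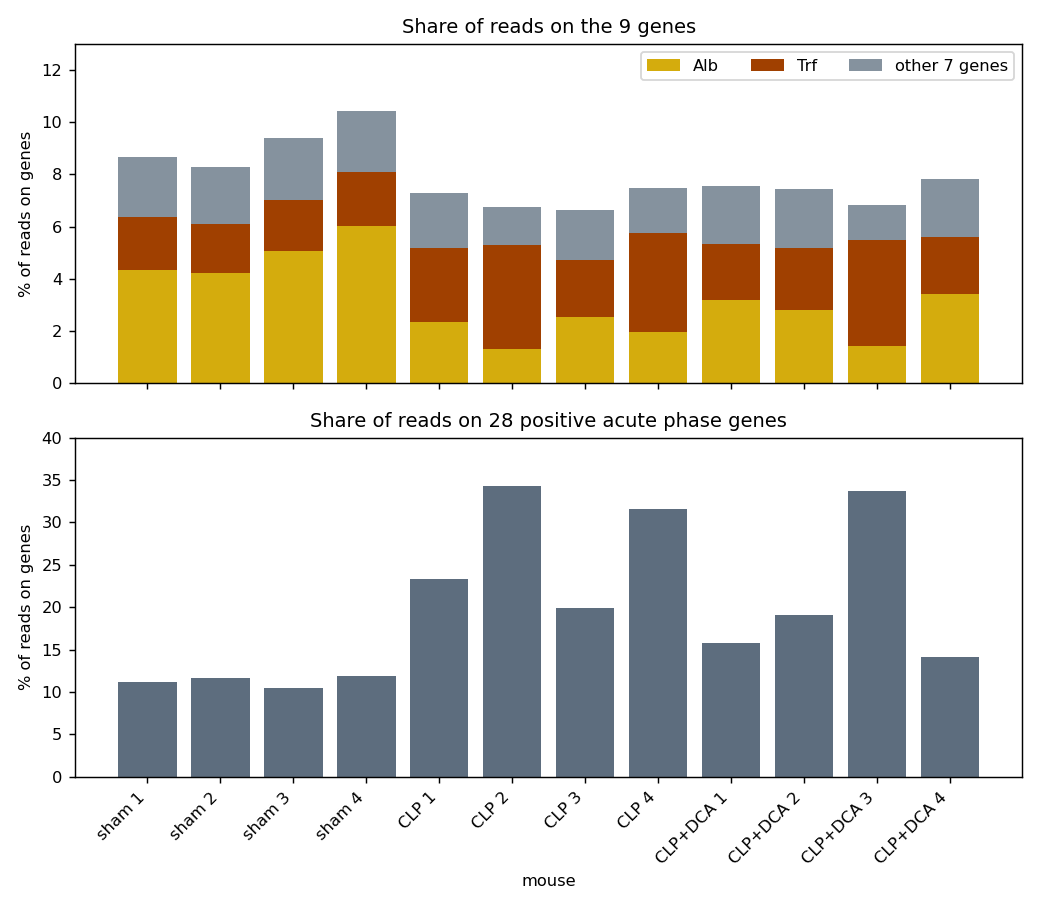
Percent of the reads of each mouse on Alb, Trf and the other 7 genes (top, stacked bars) and on 28 positive acute phase genes (bottom), 1 bar per mouse. The share of the positive genes is 10.5% to 11.95% in sham and 19.9% to 34.3% in CLP, and is highest in CLP 2, CLP+DCA 3 and CLP 4.

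Of 28 positive acute phase genes listed, 16 rose in CLP and 0 fell, 25 had all CLP mice above sham, and the median log2 fold change was 1.49. Over all genes tested, 1.64% passed as higher and 12.2% had all CLP mice above sham. Saa3, an acute phase apolipoprotein, rose with a log2 fold change of 8.75 (adjusted p = 0.0015), from 12.3 to 19.5 CPM in sham to 4300 to 9008 CPM. Orm2, an orosomucoid, rose by 2.36 (adjusted p = 0.0196) and Apcs, serum amyloid P, by 2.59 (adjusted p = 0.0202). The count of 16 ranged from 1 to 25 when 1 mouse was left out: it was 1 without any 1 of the 4 sham mice, CLP 2 or CLP 4, 7 or 8 without CLP 1, CLP+DCA 1 or CLP+DCA 2, and 25 without CLP+DCA 3. Of the list, only Saa3 passed in CLP+DCA versus sham (log2 fold change 7.53, adjusted p = 0.00428), with a list median of 1.02. Between CLP+DCA and CLP 0 passed and the median was -0.41. The reads of the positive genes were 1.12 to 1.42 times those of the 9 members in the sham group, 3.01 to 5.07 times in CLP and 1.82 to 4.94 times after CLP+DCA.

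Other secreted proteins and the partners of the 9 carriers were listed as well. Of 23 other plasma protein genes, 0 passed in any comparison (at most 4 higher and 6 lower in an alternative for CLP versus sham). In CLP, 4 separated above and 7 below sham, with a median log2 fold change of -0.03. Over all genes tested, 12.2% separated above and 14.2% below sham. As an alternative, DESeq2 on the 8 sham and CLP mice called 23.2% of the genes it tested, in either direction. The smallest p in that list were those of Lcat, which esterifies plasma cholesterol (log2 fold change 0.57, adjusted p = 0.0685), Serpina10, an inhibitor of coagulation factor X (0.46, adjusted p = 0.0731), and Ambp, the precursor of bikunin (0.46, adjusted p = 0.0815). Of 21 genes that handle the ligands or take up the carriers, 20 were tested and 0 passed, with a median of -0.22 in CLP and at most 2 higher and 6 lower calls in an alternative; 7 separated below sham and 0 above.

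B2m, the light chain of the receptor that recycles albumin, stood at 1119 to 1314 CPM in sham and 471 to 797 CPM in CLP (log2 fold change -0.91, adjusted p = 0.0700). Fcgrt, the heavy chain of that receptor, had a log2 fold change of -0.41 (adjusted p = 0.167). Hsd11b1, which regenerates active glucocorticoid, was at 313 to 394 CPM in sham and at 138, 55.1, 206 and 99.4 CPM in CLP mice 1 to 4 (log2 fold change -1.50, adjusted p = 0.0780). Nr3c1, the glucocorticoid receptor, differed by -0.29 (adjusted p = 0.124). Cyp27a1, a sterol and vitamin D hydroxylase, had a log2 fold change of -0.91 (adjusted p = 0.0981). The transferrin receptors Tfrc and Tfr2 had 0.44 (adjusted p = 0.385) and -0.04 (adjusted p = 0.839), and Stra6l, a retinol transporter of liver, had 0.18 (adjusted p = 0.314).

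Of 17 transcription factors known to act on plasma protein genes, 1 was called in CLP versus sham. Over all genes tested, 1.64% passed as higher and 1.14% as lower. Cebpd, a C/EBP factor of the acute phase, rose with a log2 fold change of 2.17 (adjusted p = 0.0283), from 3.45 to 7.38 CPM in sham to 12.2 to 33.5 CPM, and the call was kept in 17 of 23 alternatives. It was lost without any 1 sham mouse (adjusted p 0.0533 to 0.0916) and without CLP 2 (0.0813) or CLP 4 (0.0761). Dbp, the D-box factor under circadian control, was at 68.2 to 79.8 CPM in sham and at 14.1, 1.34, 34.6 and 3.91 CPM in CLP mice 1 to 4. In CLP+DCA mice 1 to 4 Dbp was 46.7, 56.0, 3.44 and 68.1 CPM. All CLP mice lay below sham and the lowest were again CLP 2, CLP+DCA 3 and CLP 4, yet the log2 fold change of -2.44 (SE 0.89) did not pass (adjusted p = 0.111).

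Cebpa, the C/EBP factor of resting hepatocytes, had a log2 fold change of -0.51 (adjusted p = 0.0938), with all CLP mice below sham. Hnf4a had 0.05 (adjusted p = 0.783), Cebpb 0.15 (adjusted p = 0.730) and the forkhead factor Foxa3 0.41 (adjusted p = 0.109). With library sizes alone, the value of Hnf4a was negative, at -0.12. All Cebpb values of CLP+DCA mice were above sham, at 126 to 209 CPM against 68.7 to 107 CPM, with a log2 fold change of 0.95 (adjusted p = 0.273). The median of the 17 factors was 0.15 in CLP.

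**Figure D5:**
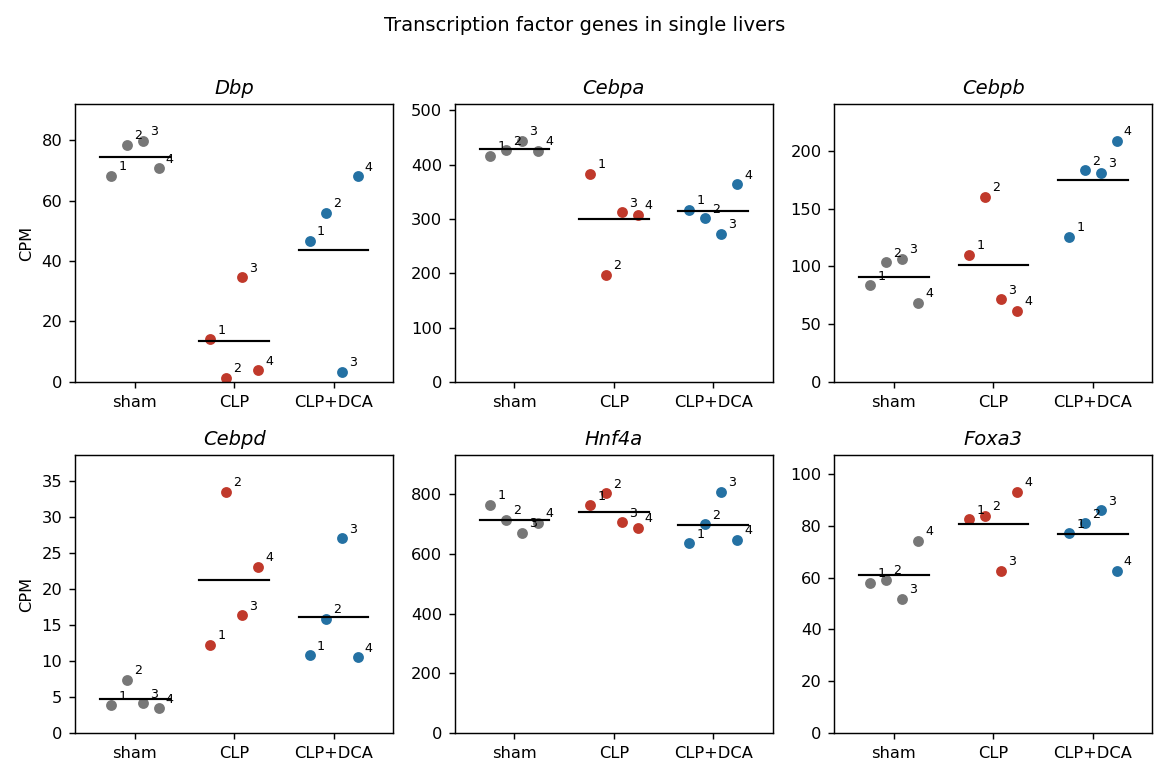
CPM of 6 transcription factor genes in each liver, with 4 sham, 4 CLP and 4 CLP+DCA mice; numbers name the mice, black lines are group means, and axes start at 0. Dbp lies at 1.34 CPM in CLP 2 and 3.44 CPM in CLP+DCA 3 and at 68.2 CPM or more in sham, while Hnf4a overlaps between groups.

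Family relatives and neighbours of the members included 19 genes, of which 17 were tested. In CLP, 2 rose (Serpina3n and Serpina3k) and 1 fell (Albfm1), beside 1.64% and 1.14% of all genes. The median of this list was 0.15 in CLP, and in the other comparisons 0 passed. The genes most like each member over the 12 mice were found among 9087 genes of at least 5 CPM, by the root mean square difference of log2 CPM less the sham mean. This is a description of profiles. Closest were Tprkb (0.194) and Qdpr (0.196) to Alb, Atp5k (0.0738) and Rbbp4 (0.0790) to Ttr, and Tmprss6 (0.0886) and Bphl (0.110) to Rbp4. Pigr (0.166) and Ugt2b36 (0.215) were closest to Afm, and the carboxylesterases Ces1d (0.623) and Ces1f (0.639) to Serpina6, at a larger distance. For Trf they were Cpb2 (0.0983) and Atp2a2 (0.118). The nearest profile of all belonged to prothrombin, F2, beside Gc (0.0347), with Osbpl2 (0.0631) next. Poglut1 (0.0891) and Plg (0.0959) were closest to Ahsg, and Eif5a (0.0754) and Otud5 (0.0755) to Fetub.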

How the data were processed

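The authors extracted RNA from whole livers, made poly(A) libraries (TruSeq RNA v2), aligned paired reads to mm10 (STAR 2.5, per the submitters' processing notes) and deposited raw counts per gene from featureCounts (Subread 1.5.0-p1). The annotation and the strand setting are not given in the sources used here, so reads of genes antisense to a member cannot be told apart from its own. Genes were filtered with filterByExpr (minimum count 10), normalized by TMM and fitted with the robust quasi-likelihood test of edgeR 4.0.16 in R 4.3.3 on all 12 mice, with 3 contrasts at an FDR of 0.05. Standard errors are log2 fold changes divided by the square root of F. RPKM uses merged GENCODE exons.

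The members and gene lists were chosen with earlier results of these data known. Named genes are the members, the 3 genes of smallest p in CLP versus sham from each of 5 lists, preset carriers, factors and neighbours, and the 2 most alike genes per member. One of the preset factors is not reported here. Alternatives were DESeq2 1.42.0, limma 3.58.1 (voom with quality weights), other scalings, filters and samples, the replicate block, and leaving out each mouse. The tests were also run on simulated counts with a capped spread, genes changed in CLP only and no outlying mouse. That run does not show how they behave with a mouse like CLP+DCA 3. In edgeR, the p-values set each difference against a spread between mice that was pooled over all groups fitted and moderated across genes.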

Additional observations from a re-analysis of the deposited data

Results flagged for a closer look

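For Ttr, Rbp4, Ahsg, Afm and Trf, mouse CLP+DCA 3 lay far from the other 3 of its group by Dixon's criterion, which chance meets in about 1 in 20 groups; 30 groups were tested. Its values were 1820 CPM for Ttr, 522 CPM for Rbp4, 6638 CPM for Ahsg and 32.7 CPM for Afm, below the others, and 44181 CPM for Trf, above them. The log2 ratio of Rbp4 to Ttr reads was also apart in this mouse, at -1.80. In sham 4 the same log2 ratio was -0.76, below a tight group of the other sham mice. Alb and Serpina6 of CLP+DCA 3 were the lowest of their group without meeting the criterion.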

How the results depend on the processing

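The counts of calls depended strongly on the test. In CLP versus sham, 367 genes and 1 member passed; library sizes alone gave 209 and 0, no filter 122 and 0, DESeq2 on all 12 mice 1906 and 4, voom 3417 and 6, edgeR on the 8 mice compared 2387 and 3, DESeq2 on them 3422 and 6, and leaving out 1 mouse 10 to 3157 and 0 to 6. In CLP+DCA versus sham, 5 genes passed; library sizes alone gave 3, DESeq2 on all mice 243 with 1 member (Alb), voom 473 with 1 (Alb), edgeR on the 8 mice 0, DESeq2 on them 169, and leaving out 1 mouse 1 to 11. In CLP+DCA versus CLP, 1 gene passed; DESeq2 on all mice gave 137, voom 1287 with 2 members (Serpina6 and Ttr), edgeR on the 8 mice 0, DESeq2 on them 80, and leaving out 1 mouse 0 to 616. The cause of these differences was not tested. The sign of all members but Ahsg was kept in CLP versus sham in all 23 alternatives, and Alb lost its call in 12 of them.

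With the replicate number as a block, 46 genes and 0 members passed in CLP versus sham, 0 genes for CLP+DCA against sham and 4 for CLP+DCA against CLP. Deviations of same-numbered mice correlated at -0.46 to 0.55, which does not settle whether the numbers pair the mice. The log2 ratio of Rbp4 to Ttr had p of 0.50, 0.625 and 1 in exact sign-flip tests with the replicate block for CLP against sham, CLP+DCA against sham and CLP+DCA against CLP, where the smallest p is 0.125.

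Values near 0 changed sign. Ahsg was -0.0816 in CLP versus sham and 0.0204 in CLP+DCA versus CLP with library sizes alone, and 0.0682 in CLP+DCA versus sham with voom, where leaving out 1 mouse gave -0.0769 to 0.0696. Between CLP+DCA and CLP, Fetub was -0.0200 with voom and -0.0260 to 0.0785 without 1 mouse, Gc was -0.0433 to 0.0903 without 1 mouse, and the log2 ratio of Rbp4 to Ttr was -0.24 to 0.24 without 1 mouse. Library sizes alone also moved the median of all genes to 0.12 in CLP+DCA versus CLP. With 4 mice per group, differences smaller than the spread between mice could not be resolved, and Serpina6 in CLP 2 rests on 9 reads.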
